A study of Mus musculus with 12 samples.

Results

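The regions described here are all clusters that the authors listed for Flag-tagged mouse Puf60 without exon 5, each compared between 3 iCLIP libraries and 1 size-matched input library of N2A cells, a mouse neuroblastoma line. No measured value was used to choose them: all 39454 rows of that table were taken, out of 124941 clusters in the 3 tables of the series, of which 36227 belong to Puf60 with exon 5 and 49260 to the RNA-binding protein Rbm38. In iCLIP, ultraviolet light links a protein to the RNA it touches, the protein is pulled down and the RNA that comes with it is sequenced; the size-matched input is RNA of the lysate that skipped the pull-down. The cells carried a Flp-in transgene for Puf60 lacking exon 5 under doxycycline control, induced with 1 µg/ml for 24 h before crosslinking at 150 mJ/cm2 in the CLIP libraries and in the input alike, and RNA was recovered with the anti-Flag antibody M2. CLIP of Puf60 with exon 5 was done after 48 h of induction and its input after 24 h, so isoform and induction time cannot be told apart wherever the tables are set side by side. The labels call the CLIP libraries replicates BR1 to BR3 without spelling out BR or saying that they came from separate cultures, do not say how many clones made up the line, and do not say that the cells' own Puf60 was removed.

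Puf60 takes part in splicing and resembles U2af2, the large subunit of the factor that reads the pyrimidine tract in front of a 3′ splice site. It binds stretches of U and C in pre-mRNA and helps U2 snRNP settle at nearby branch points, so that its contacts are known mainly from introns. Under the name FIR it is also known as a partner of Fubp1 in the control of Myc. Exon 5 is an alternative exon of the Puf60 gene.

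For each cluster the authors' deposited table gives a log2 fold, with its p and the p after adjustment. The table does not state the direction of the fold. It was read as CLIP over input, since its p tests 1 side, the positive one, and since abundant small RNAs, a usual part of input, had negative values. Of 39297 clusters with a p-value, 14235 were enriched over input (36.2%, 95% Wilson interval 35.8 to 36.7), meaning an adjusted p under 0.05 with a log2 fold above 0. Another 10968 were lower than input (27.9%) by a Benjamini-Hochberg adjustment of 1 minus the deposited p, and 14094 were neither. The table gives 1 comparison per cluster and no value per library, so the spread between the 3 libraries enters only through the authors' test, the single input has no spread of its own, and depth is unknown. Clusters are not replicates, so the intervals on shares carry counting error alone. Clusters were placed in genes by RefSeq gene bodies of GRCm38.p6, the assembly of mm10, and their strand was read from their position on the 50 nt grid.

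Sequence could be read where a cluster lay wholly inside a RefSeq start-site window, 250 bases before to 50 bases after an annotated transcript start. There were 210 such clusters, of which 54 were enriched, 72 lower and 84 neither. None of the clusters with the highest folds of the table lay there, and the highest in a window was 4.78, at the 150 nt cluster of Prpf40b in the authors' deposited table. Of the 50 nt clusters on the strand of a named gene, the central 30 bases of the 6 highest and the 3 lowest are shown to let the base composition at both ends of the range be seen. Each is written 5′ to 3′ in lower case with its longest run of C and T in capitals, from RefSeq, GRCm38.p6.
Ncoa6, enriched, chr2:155440796-155440825, minus strand: TCCCTCTCCTCTTCTCTCTCTCTCTCTCTC
Nt5dc2, enriched, chr14:31134711-31134740, plus strand: ctgccttcttggTTCTCCTTCCCTgtagac
R3hdm2, enriched, chr10:127380661-127380690, plus strand: cttccccttctgCTTCTCCCCCTCCCCCCT
Rfx3, enriched, chr19:28011196-28011225, minus strand: CTCCCCCCCgcccctccccgcgcgagtgtc
Pcbp2, enriched, chr15:102470611-102470640, plus strand: cccgcccgCCCTCCgccgccctccacccgc
Ireb2, enriched, chr9:54863761-54863790, plus strand: gCTTCCTTCCTCCTTTCCCCTgcccgtccg
Polr3e, lower, chr7:120917561-120917590, plus strand: TCTCTTCgggggcgtgggttcgaatcccac
Rpl14, lower, chr9:120571511-120571540, plus strand: CTCTCTCTTCTCgctgagcgccgccaacat
Rpl12, lower, chr2:32961711-32961740, plus strand: cgTCTTTTCggctttcggctcggaggaggc

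Log2 folds in the authors' deposited table were 4.45 at Ncoa6, a nuclear receptor coactivator gene, 4.25 at Nt5dc2, 4.23 at R3hdm2, 3.98 at Rfx3, a transcription factor gene of ciliated cells, 3.95 at Pcbp2, which encodes a poly(C)-binding protein, and 3.80 at Ireb2, which encodes an iron-responsive RNA-binding protein. At the other end, the same table gave -2.77 in the window of Polr3e, an RNA polymerase III subunit gene, and -2.17 at Rpl14 and -2.15 at Rpl12, both ribosomal protein genes. The Polr3e cluster was centred at -203 nt from the annotated start, outside the gene, so its RNA need not be the Polr3e transcript. C and T made up 90% of the bases of the Ncoa6 cluster, 72% at Nt5dc2, 92% at R3hdm2, 86% at Rfx3, 76% at Pcbp2 and 78% at Ireb2, against 52% at Polr3e, 54% at Rpl14 and 46% at Rpl12. The longest unbroken run in the Pcbp2 cluster was 6 bases. The printed Nt5dc2 sequence holds a run of 12 pyrimidines and, directly after it, GTAG. Rpl14, with a run of 12 in the printed bases and of 14 over the whole cluster, shows that such runs also occurred in a cluster lower than input.

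Over all 210 clusters in these windows, the median pyrimidine content was 63% (quartiles 48 and 75.5) of bases in enriched clusters, 54.5% in lower clusters and 54% in the others. At least 70% pyrimidines were found in 20 of 54 enriched clusters (37.0%), in 3 of 72 lower clusters (4.17%) and in 7 of 84 others (8.33%), against 4.62% of all 394212 tiles of 50 bases cut from the 32851 windows on both strands. Among clusters exactly 50 nt wide, which match those tiles in length, the counts were 17 of 42, 3 of 54 and 7 of 73. An unbroken run of at least 10 pyrimidines was present in 24 of 54 enriched clusters (44.4%, 32.0 to 57.6), 18 of 72 lower clusters (25%, 16.4 to 36.1), 18 of 84 others (21.4%, 14.0 to 31.3) and 9.24% of all tiles. The letters TTTTT, searched on the cluster's strand, occurred in 8 of 54 enriched clusters (14.8%, 7.70 to 26.6), 6 of 72 lower clusters and 12 of 84 others, and in 5.22% of tiles, with intervals that overlapped between the calls. The intervals for runs of 10 pyrimidines in enriched, lower and other clusters all lay above the tile share, and those of enriched and lower clusters overlapped. Wider clusters have more room for a run than a tile. At exactly 50 nt, runs were present in 16 of 42 enriched (38.1%), 13 of 54 lower (24.1%) and 17 of 73 other clusters (23.3%). At the predicted gene Gm35667, chosen after its values were seen, a 100 nt cluster of 100% pyrimidines (log2 fold 3.97 in the authors' deposited table) overlay a 50 nt cluster with the opposite offset and 0% pyrimidines (3.48).

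**Figure D1:**
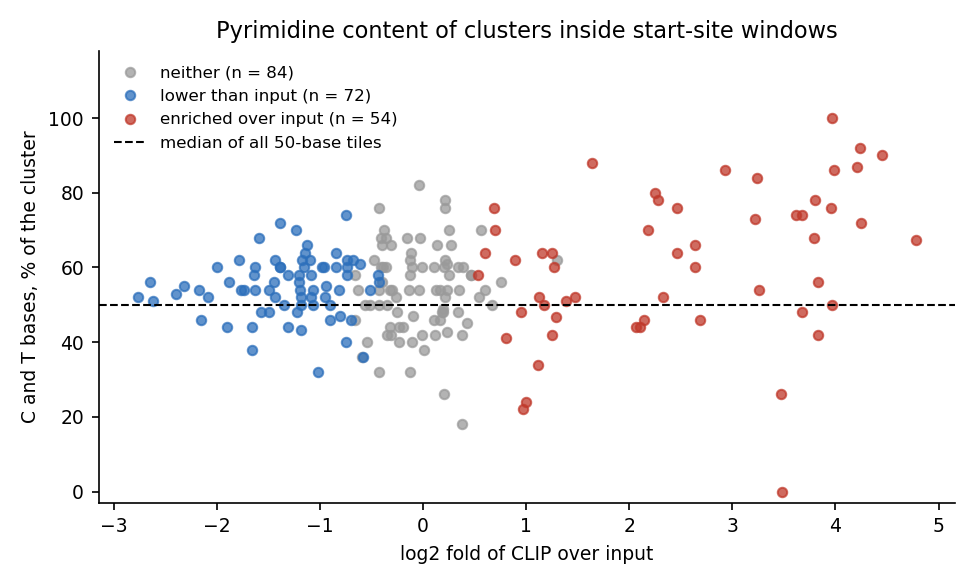
Percent of C and T bases (vertical axis) against the authors' CLIP-over-input log2 fold (horizontal axis) for the 210 clusters inside start-site windows; each point is 1 cluster, coloured by call, and the dashed line is the median of all 50-base tiles. Clusters of at least 70% pyrimidines number 20 of 54 enriched, 3 of 72 lower and 7 of 84 neither, and 1 enriched cluster lies at 0%.

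MicroRNA hairpins offered another set of RefSeq sequences. Of 1005 hairpins, 44 were met by a cluster on the same strand, and 17 of the 44 by an enriched one, a share near the 36.2% of all clusters. Some miRNAs, called mirtrons, are short introns whose 3′ end is a 3′ splice site; a hairpin ending in CAG or UAG has the letters of such an end, and 206 of the 1005 (20.5%) do. Exon coordinates were not used here, so whether these hairpins are spliced introns was not tested. Of the 9 met hairpins that end this way, 6 held an enriched cluster, 1 only a lower one and 2 neither. The 3p arms of the 3 highest and of the 3 without an enriched cluster are shown because they lie toward that end, 5′ to 3′, with the seed (bases 2 to 8) in capitals, from RefSeq, GRCm38.p6.
miR-6999-3p, enriched, chr2:91944872-91944893, minus strand: cUUCAGCUguccuccuuucugu
miR-6942-3p, enriched, chr13:21396579-21396600, minus strand: uUAUGGUUcucuccaccucuca
miR-6935-3p, enriched, chr11:120347350-120347369, minus strand: uGUUCUUUgucuuuccacag
miR-7038-3p, not enriched, chr5:140427388-140427409, plus strand: cACUGCUCcugccuucuuacag
miR-6930-3p, lower, chr11:102404920-102404940, minus strand: cUGGCCUCuccauacucccag
miR-7a-1-3p, not enriched, chr13:58392800-58392821, minus strand: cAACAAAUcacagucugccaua

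The authors' deposited table gave log2 folds of 4.43 at Mir6999, within the diacylglycerol kinase gene Dgkz, 3.71 at Mir6942, within the zinc finger gene Zkscan3, and 3.70 at Mir6935, within the actin gene Actg1. Lower enriched values in the same table were 1.70 at Mir7073 (Cnot1) and 0.99 at Mir1982 (Oaz1). Without enrichment it listed 0.17 at Mir7-1 (Hnrnpk), -0.08 at Mir7038 (Eif3b) and -1.17 at Mir6930 (Slc25a39). No seed was shared among the 9 arms. Pyrimidines made up 81.8%, 77.3% and 75% of the 3p arms of Mir6999, Mir6942 and Mir6935, and 72.7% and 71.4% of those of Mir7038 and Mir6930, all above the median of 59.1% over 731 annotated 3p arms. The arms of Mir7073 and Mir1982, also enriched, were at 68.2% and 73.9%, and that of Mir7-1 at 50%, so the ranges of enriched and other hairpins of this kind overlapped.

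Among hairpins with another end, the authors' deposited table gave 4.68 and 4.32 at the clusters of Mir138-1, a miRNA of neurons, 3.97 at Mir5125 in Srrm2, 3.42 at Mir652, 3.08 at Mirlet7c-2 of the let-7 family and 2.95 at Mir19a of the Myc-regulated miR-17-92 group. Of 28 such hairpins 11 held an enriched cluster, again near the background. Of the 7 hairpins that overlap an annotated snoRNA or scaRNA gene 0 were enriched and 7 lower, from -1.42 at Mir5121 to -3.50 at Mir1291 in the same table. A match needed an overlap of at least 1 nt, and the clusters given for Mir652 and Mir19a end at the first base of the hairpin. Other clusters are much wider than their hairpin. A match therefore need not place the hairpin inside the cluster and does not assign the reads to the miRNA.

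The distribution of folds had a low and a high mode. The median log2 fold over all clusters was 0.11 (quartiles -0.73 and 1.77) in the authors' deposited table, with a range from -5.46 to 7.84. Enriched clusters had a median of 2.80 (1.47 and 3.68), and 9262 of them were above 2, 2456 above 4 and 145 above 6. Clusters lower than input had a median of -1.15 (-1.49 and -0.85). Most clusters, 75.2%, were a single 50 nt window; 33.5% of these were enriched, against 44.3% of wider ones. An exact pair of log2 fold and p was shared with at least 1 other cluster by 88.9% of the 50 nt clusters and by 30.5% of wider ones, up to 216 clusters with 1 pair of values, so many single-window values stand on a coarse scale. In addition, 1202 clusters with a log2 fold above 0 that would pass a Benjamini-Hochberg adjustment of the deposited p were listed by the authors with an adjusted p of 1 (median log2 fold 0.81) and are counted here as not enriched.

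**Figure D2:**
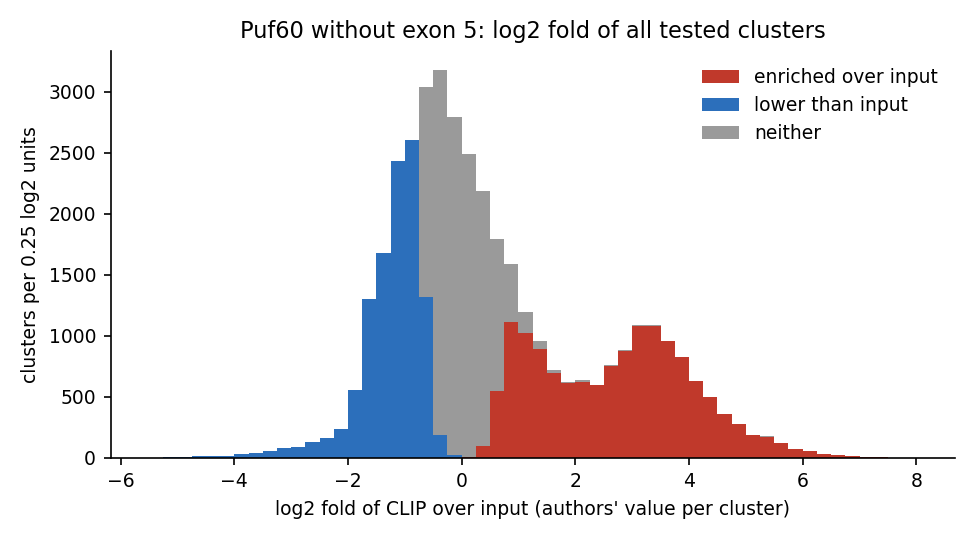
Number of clusters (vertical axis) in bins of 0.25 of the authors' CLIP-over-input log2 fold (horizontal axis), stacked by call: 14235 enriched, 10968 lower than input and 14094 neither. Enriched clusters form a separate rise above a log2 fold of 2, where 9262 of them lie.

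By gene class, protein-coding genes held 81.7% of all enriched clusters, clusters outside genes 10.3% and long noncoding RNA genes 3.12%, each class being enriched at a share near that of the whole table. Small structured RNAs were seldom enriched, but their low values were among the grounds for reading the fold as CLIP over input, so their direction is no independent result. Of 1110 clusters in long noncoding RNA genes, 444 were enriched (40.0%, 37.2 to 42.9), and of 31140 in protein-coding genes 11630 were (37.3%, 36.8 to 37.9), next to the background of 36.2% over all clusters. Clusters outside annotated genes were enriched at 1471 of 4256 (34.6%, 33.2 to 36.0). Against this, 3 of 249 clusters at snoRNA genes (1.20%, 0.41 to 3.48), 3 of 248 at tRNA genes (1.21%, 0.41 to 3.50) and 14 of 186 at snRNA genes (7.53%, 4.54 to 12.2) were enriched. Lower than input were 242 of the 249 at snoRNA genes, 227 of the 248 at tRNA genes, 120 of the 186 at snRNA genes, 15 of 17 at scaRNA genes, 12 of 13 at rRNA genes and all 24 on the mitochondrial genome. Median log2 folds in the authors' deposited table were -2.90 at snoRNA genes, -2.58 on the mitochondrial genome, -1.98 at rRNA, -1.88 at tRNA and -0.78 at snRNA genes.

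**Figure D3:**
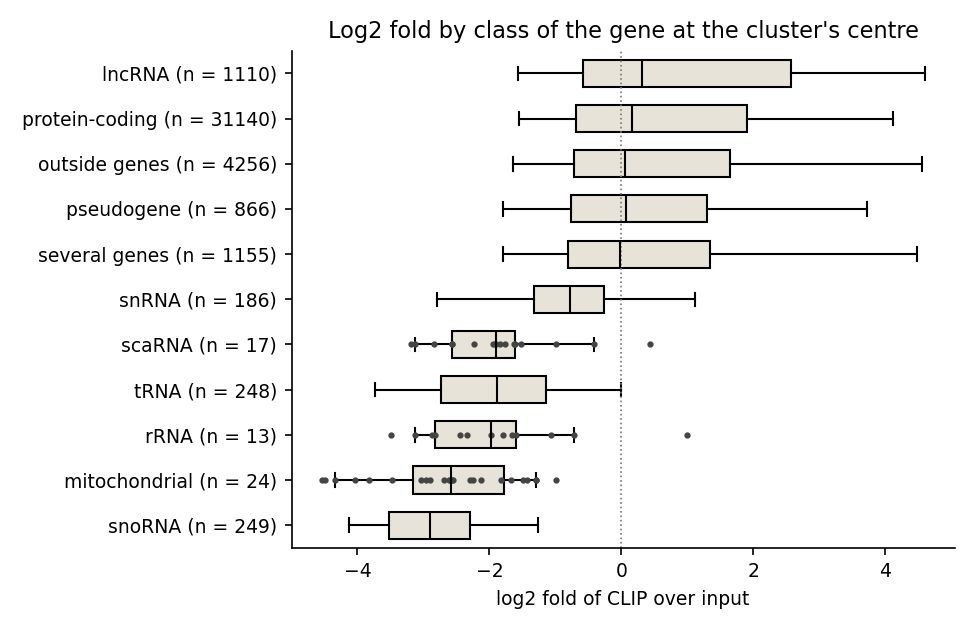
Log2 fold of CLIP over input (horizontal axis) by class of the gene at the cluster's centre, with small RNA genes taking precedence over their hosts; boxes span the quartiles with the median, whiskers the 5th and 95th percentiles over clusters, and classes under 30 clusters show each cluster as a point. Medians lie near 0 for protein-coding (0.17) and long noncoding genes (0.31) and at -2.90 for snoRNA genes.

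The lowest fold of the table, -5.46, lay outside annotated genes. Within genes, low folds were frequent at small noncoding RNAs. In the authors' deposited table the cluster at Snord118, the U8 snoRNA, was at -4.42, Snord93 at -4.92, Snord45b in Rabggtb at -4.71, Snord19 in Gnl3 at -4.64 and Snora28 in Eif5 at -4.62. Rnu3a, a gene of the U3 RNA of ribosome assembly, was at -4.26. Among tRNA genes the lowest were n-TMcat2 at -4.92 and n-TGtcc6 at -4.45, as listed in that table. Among the lowest outside such genes were Dpp8, a peptidase gene, at -4.01, the ribosomal protein gene Rpsa at -3.81, Srr, serine racemase, at -3.79, Nop58, a snoRNP protein gene, at -3.63, and the spliceosomal Snrpb at -3.46 in the authors' deposited table. Each of these 5 places was lower than input in the table of Puf60 with exon 5 as well, from -2.58 at Snrpb to -4.11 at Nop58, and 4 of the 5 were lower in that of Rbm38, where Dpp8 was at -0.61 and neither.

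Long noncoding RNAs spanned both calls. Malat1, a nuclear-speckle RNA, carried the widest enriched cluster of a named gene, 6050 nt at chr19:5795986-5802035 listed by the authors' deposited table at a log2 fold of 2.56. Highest among named genes of this class in that table, with no check of strand, were Mir100hg, the host of a miRNA group, at 6.07, Hdnr at 5.58 and Jpx, an activator of Xist, at 5.23. The Mir100hg cluster was read as minus strand, whereas the Mir125b-1 hairpin within that gene is on the plus strand. It may therefore lie opposite to the host transcript. Dleu2 was enriched at 26 of 37 clusters, with a median of 1.87. Neat1, the scaffold of paraspeckles, was enriched at 6 of 61 clusters and lower at 16, with a median of -0.12, and Snhg14 ranged from -3.30 to 4.91 over 8 clusters. Of the 27 nuclear long noncoding RNAs and snoRNA hosts fixed as a list, 19 had a cluster and 15 an enriched one, with 65 of 188 clusters enriched (34.6%, 28.1 to 41.6), a share near the background.

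By gene, 4266 of 7162 genes with a tested cluster had at least 1 enriched cluster (59.6%), 3890 of them protein-coding. In 1851 genes enriched and lower clusters stood side by side. At least 10 enriched clusters were found in 222 genes and at least 20 in 55. Among 1124 genes with 8 or more clusters, 7 were enriched at every cluster and 72 at none.

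The named genes enriched throughout were Grik5, a kainate receptor subunit gene, at 12 of 12 clusters (median log2 fold 3.48 in the authors' deposited table, lowest 0.75, highest 5.32), Pnisr, which encodes a serine- and arginine-rich nuclear protein, at 8 of 8 (median 3.37), Prph, the intermediate filament of peripheral neurons, at 12 of 12 (2.80), Aup1 at 9 of 9 (2.69) and Noc2l at 19 of 19 (2.51). The other 2 of the 7 are predicted genes. Higher medians in that table were reached by Vwa5b1 (3.92, 7 of 8 enriched), the centriole gene Odf2 (3.76, 6 of 9), Ppfibp2 (3.56, 7 of 8), Plekha6 (3.54, 9 of 12), Dlg4, the postsynaptic scaffold PSD-95 (3.52, 9 of 12), and Ddx46, a U2 snRNP-associated helicase (3.52, 7 of 8). At Plekha6 and Dlg4 the clusters that were not enriched reached down to -1.69 and -1.77, so both extremes lay within 1 gene body. The table of Puf60 with exon 5 listed 11 of 13 clusters enriched at Grik5, 10 of 10 at Pnisr, 11 of 12 at Prph and 8 of 8 at Dlg4.

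At the low end, Myo3a was lower than input at all 14 clusters (median -2.46, from -3.48 to -1.34 in the authors' deposited table), and so was Fem1b at all 14 (median -1.18). Rpsa had the lowest median, -2.56, with 9 of 11 clusters lower and 0 enriched, and Rps3, another small-subunit ribosomal protein gene, was lower at 9 of 10 (median -1.34 in that table). The Rpsa count includes a cluster at a snoRNA gene within it, at -4.55 in that table. Tfrc, the transferrin receptor gene, was lower at 12 of 20 clusters and enriched at 1. Xkr6 had the most clusters without any enrichment, 0 of 43, with 26 lower. For Tfrc and Fem1b the table of Rbm38 listed 8 of 8 and 14 of 19 clusters as enriched, beside 51.2% of all its tested clusters. That of Puf60 with exon 5 listed 0 of 15 and 0 of 13, beside 39.3%. The other genes of this paragraph varied for Rbm38, with 42 of 74 enriched at Xkr6, 5 of 12 at Rps3, 0 of 16 at Myo3a and 0 of 9 at Rpsa. These tables were made from different pull-downs, and the difference was not tested.

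Genes with many clusters fell into both kinds. Prrc2c, Hnrnpu and Srrm2 were enriched at 41 of 61, 39 of 58 and 37 of 51 clusters. In Hnrnpu, a gene of 17784 nt with 3.26 clusters per kb, the highest log2 fold in the authors' deposited table was 3.50. Among genes with over 100 clusters, Huwe1 and Pcbp3 had the most enriched ones, while Samd5 (19 of 241), Map1b (20 of 216), Unc5c (18 of 189), Ankrd11 (22 of 172), Trps1 (17 of 169) and Efna5 (9 of 163) were enriched at few. The X chromosome had the largest share of enriched clusters, 604 of 1313 (46.0%), which was 43.9% without Huwe1.

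Enriched clusters lay near each other. Where 2 neighbouring clusters of a gene on the same strand lay up to 100 nt apart, the neighbour of an enriched cluster was enriched in 69.7% of cases and the neighbour of another cluster in 15.7%. At gaps over 100 and up to 500 nt the shares were 61.5% and 18.1%, from there up to 2000 nt 56.5% and 25.1%, and over 2000 nt 52.2% and 36.9%. The difference between the shares thus shrank with distance and remained within genes.

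Along protein-coding genes with an inferred strand, clusters of every call were most frequent at the 3′ end, the enriched ones least so. Enriched clusters lay in the body more often than lower or other clusters did. The last of 10 equal parts of the gene held 16.8% of 10183 enriched clusters, 44.9% of 7610 lower clusters and 33.1% of 10181 others. From the fifth to the eighth part enriched clusters made up 9.18%, 10.4%, 11.1% and 11.01%, against 4.76%, 4.43%, 4.68% and 6.01% of lower clusters. The median distance from the cluster's centre to the annotated gene end was 11470 nt for enriched, 3249.5 nt for lower and 7111 nt for other clusters, in genes of similar median length (38548, 45612 and 41905 nt). Within 2000 nt of the gene end 19.9% of clusters were enriched, within 2000 nt of the gene start 37.1% and between them 42.7%. Enriched clusters near the gene end also had lower folds, with a median of 1.83 in the log2 folds that the authors' deposited table gives, against 2.77 between the ends and 2.25 near the start. At the start the calls were alike, with 7.60% (7.10 to 8.13) of enriched, 7.31% of lower and 7.42% of other clusters within 2000 nt.

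**Figure D4:**
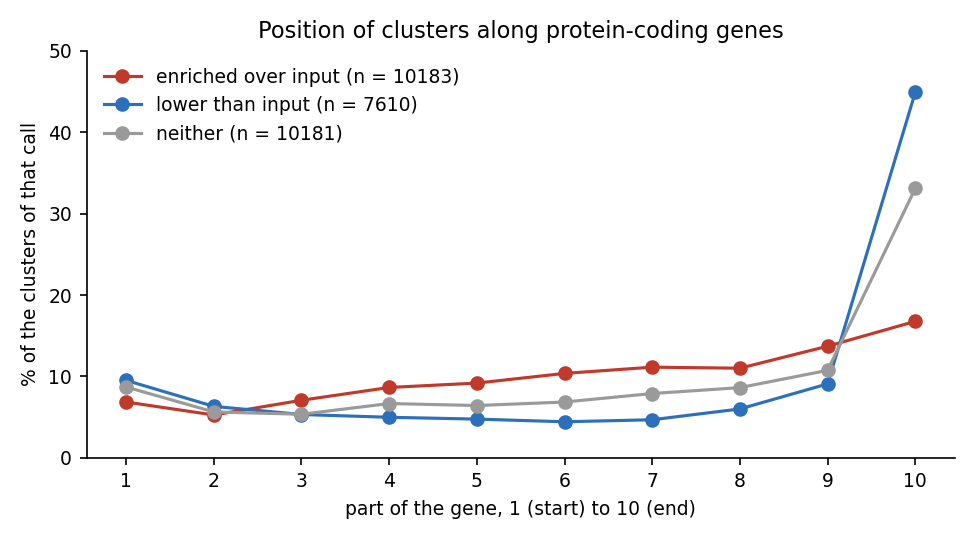
Share of clusters (vertical axis, percent of the clusters of each call) in 10 equal parts of protein-coding genes from start to end (horizontal axis); each point is 1 part and colours give the call. Part 10 holds 44.9% of lower clusters and 16.8% of enriched clusters, while parts 5 to 8 hold more of the enriched than of the lower clusters.

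The clusters of several groups of RNA-processing genes were enriched at shares above that of the whole table. Per list, the share of clusters enriched is given beside the background of 36.2%, with no test, since the lists were chosen with earlier results of these data known. Of 29 genes of 3′ splice site recognition, 22 had a cluster and 14 an enriched one (63.6%, against 59.6% of all genes), with 114 of 234 clusters enriched (48.7%, 42.4 to 55.1) and 29 lower. Rbm39, a U2af2-like protein gene, was enriched at 23 of 35 clusters (highest log2 fold 4.52 in the authors' deposited table), Sf1, the branch-point binding protein, at 17 of 37 (4.24), and the U2 snRNP subunits Sf3b3 and Sf3b1 at 15 of 28 (4.70) and 12 of 19 (3.67). U2af2, the relative of Puf60, was enriched at 9 of 11 clusters and reached 6.08 in that table, with a median of 3.07. Not every member followed, since Dhx15, a helicase of spliceosome disassembly, was enriched at 0 of 9 clusters and Uhmk1, a kinase of Sf1, at 0 of 7, of which 5 were lower.

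For the rest of the core spliceosome, 23 of the 44 listed members with a cluster had an enriched one (52.3%, below the 59.6% of all genes), while 147 of 313 clusters were enriched (47.0%, 41.5 to 52.5). Rbm25 and Prpf39 led with 28 of 45 and 23 of 27, followed by Snrnp70 (15 of 29) and Luc7l3 (13 of 18). Prpf39, Snrnp70 and Luc7l3 belong to or work with U1 snRNP, which reads the 5′ splice site. Among serine/arginine-rich proteins, 25 of 26 genes with a cluster had an enriched one, and 245 of 425 clusters (57.6%, 52.9 to 62.3) were enriched, with Srrm2 at 37 of 51, Srrm1 at 26 of 30, the export helicase Ddx39b at 23 of 28 and Srsf11 at 20 of 24. Among hnRNPs and related genes, 24 of 27 had an enriched cluster and 288 of 490 clusters (58.8%, 54.4 to 63.0) were enriched, including Hnrnpu, Ewsr1 (29 of 33) and Hnrnpk (24 of 31). By contrast, pyrimidine-tract and neuronal splicing regulators were enriched at 258 of 711 clusters (36.3%, 32.8 to 39.9), next to the background, and Pcbp3 alone held 236 of these clusters with 56 enriched. Without genes of over 100 clusters that list stood at 42.5%, while Ptbp2, a neuronal pyrimidine-tract binding protein gene, was enriched at 34 of 61 and Tial1 at 17 of 22.

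Fubp1, the partner of Puf60 under the name FIR, and Myc, the gene in whose control they are known, were both among the targets. The list of Fubp and Myc genes had 65 of 93 clusters enriched (69.9%, 59.9 to 78.3), 49 of them in Fubp1. Counts per gene were not filtered by strand, and those of Fubp1 include an enriched cluster opposite to the gene (log2 fold 3.72 in the authors' deposited table). Khsrp, a Fubp relative, was enriched at 8 of 10 clusters (highest log2 fold 4.91 in the authors' deposited table), Myc at 4 of 6 (4.23), Mga at 3 of 7 and Fubp3 at 1 of 4, while the single cluster of Max was not enriched. Without its member with most clusters, which is Fubp1, the list stood at 57.1%.

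Genes of 3′ end formation and RNA decay differed among themselves. Cleavage and polyadenylation genes were enriched at 84 of 154 clusters (54.5%, 46.7 to 62.2), with Cpsf6 at 45 of 59 and the poly(A)-binding Pabpn1 at 9 of 10, but Cstf2 was lower at 7 of 14. Without Cpsf6 that list was at 41.1% (31.7 to 51.1), an interval that holds the background. Genes of the nuclear exosome and RNA surveillance were enriched at 108 of 179 (60.3%, 53.02 to 67.2), with Rbm26 at 33 of 43, Zfc3h1 at 15 of 17 and Srrt, a cap-binding complex partner, at 10 of 11. The exosome helicase Mtrex was enriched at 0 of 5. CCR4-NOT genes, the main cytoplasmic deadenylase, stood at 54 of 127 (42.5%, 34.3 to 51.2), near the background, with Cnot2 reaching 6.87 in the authors' deposited table.

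Other groups above the background were genes of centrosomes and cilia at 97 of 148 clusters (65.5%, 57.6 to 72.7), voltage-gated channels at 36 of 58 (62.1%, 49.2 to 73.4) and HECT ubiquitin ligases at 194 of 348 (55.7%, 50.5 to 60.9). Pcm1, the scaffold of centriolar satellites, and Cep170 gave 47 of 62 and 28 of 54, and Cdk5rap2 was enriched at 3 of 3 clusters, whose log2 folds in the authors' deposited table had a median of 5.13. The calcium channel subunit gene Cacng7 was enriched at 7 of 7 and the potassium channel gene Kcna2 at 3 of 3, with medians of 3.35 and 3.45 in that table. Beside Huwe1, the HECT list included Herc1 (35 of 67) and Trip12 (16 of 24), while Ube3a was lower at 10 of 27 clusters and enriched at 6. The channel list had 23 of 69 members with a cluster, so these values speak for those genes that gave clusters.

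Below the background stood genes of abundant housekeeping transcripts. Nuclear-encoded oxidative phosphorylation genes were enriched at 39 of 262 clusters (14.9%, 11.1 to 19.7) and lower at 114, and 26 of 73 genes with a cluster had an enriched one (35.6%, against 59.6% of all genes). Cytosolic ribosomal protein genes were enriched at 159 of 545 clusters (29.2%, 25.5 to 33.1) and lower at 236, but Rpl3 was enriched at 10 of 19 and Rpl10a at 8 of 12, with Rps24 at 8 of 13. Clusters at snoRNA genes within such hosts, as at Rpsa, can be part of these counts. Translation factors stood at the background (188 of 503, 37.4%, 33.3 to 41.7), with the scaffold genes Eif4g1 at 28 of 46 and Eif3a at 24 of 35 on one side and Eif3f at 0 of 9 on the other. Chaperones were also near it (133 of 353, 37.7%), and Hsp90b1 was enriched at 17 of 18 while the chaperonin subunit Cct7 was at 0 of 13.

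Some list shares rested on single genes. Axon guidance genes stood at 67 of 434 clusters (15.4%, 12.3 to 19.1), most of them in Unc5c and Efna5. Without these 2 genes the list was at 48.8% of 82 clusters, against 37.0% of all clusters counted the same way. Of its other members, Slit2 was enriched at 9 of 13 clusters and Plxna3 at 8 of 11. Microtubule and tubulin genes stood at 100 of 511 (19.6%, 16.4 to 23.2) with Map1b, a neuronal microtubule protein gene, holding 216 of them. Without Map1b they were at 27.1%, still under the background, and the tubulin genes Tubb3, Tubb2a and Tubb2b were enriched at 0 of 13, 0 of 6 and 0 of 7 while the motor gene Kif5a was at 6 of 6. Chromatin regulators stood at 221 of 642 (34.4%, 30.9 to 38.2) and at 42.3% without Ankrd11.

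**Figure D5:**
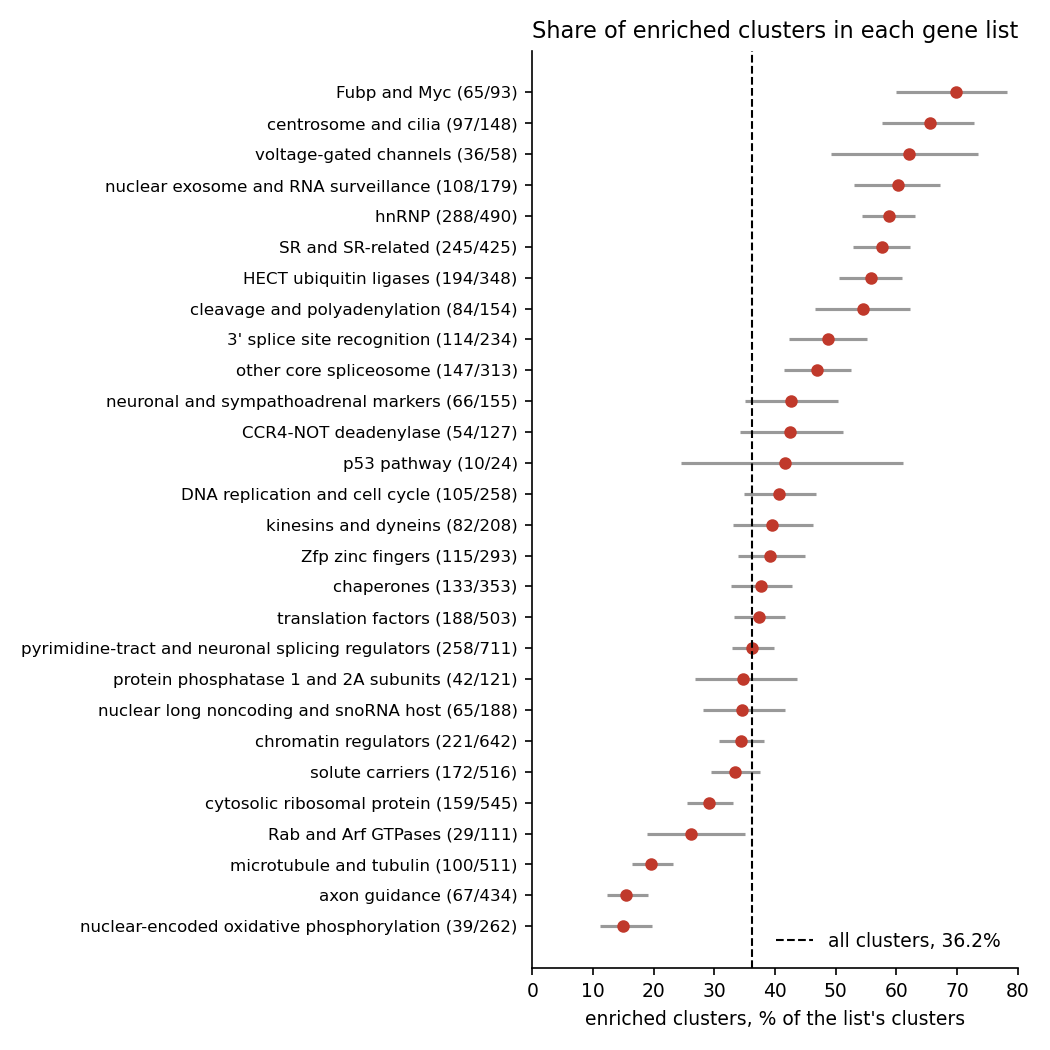
Percent of a list's clusters that were enriched (horizontal axis) for the 28 gene lists with at least 20 clusters; points are shares, lines are 95% Wilson intervals for counting error only, labels give enriched over all clusters, and the dashed line marks the 36.2% of all clusters. Fubp and Myc genes lie highest at 69.9% and oxidative phosphorylation genes lowest at 14.9%.

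Markers of the labelled cell type were present and those of other cells nearly absent. Of 26 neuronal and sympathoadrenal markers 16 had a cluster, and 66 of 155 clusters were enriched (42.6%, 35.1 to 50.5), including Snap25 at 17 of 37, Hand2 at 7 of 7 and Elavl4 at 10 of 34. An enriched cluster was found in 10 of the 16 (62.5%, against 59.6% of all genes) and in none of the other 6, Tubb3 among them. None of 11 fibroblast and muscle markers had a cluster, 1 of 12 glial markers did and 2 of 13 immune and endothelial markers (Cx3cr1 and Pecam1), which had 2 clusters each. Of these few clusters, 1 of 1 at the glial marker and 3 of 4 at the immune and endothelial ones were enriched. The other lists, for DNA replication and cell cycle (40.7%), the p53 pathway (41.7%), kinesins and dyneins (39.4%), Zfp zinc fingers (39.2%), phosphatase subunits (34.7%), solute carriers (33.3%) and Rab and Arf GTPases (26.1%), held shares from 26.1% to 41.7%. Of these, Top2a, the replication topoisomerase gene, was enriched at 33 of 44 clusters, Trp53 at 3 of 6 and Slc38a1 at 16 of 39.

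The transcript of Puf60 itself (gene 67959, chr15:76070182-76082537, minus strand) carried 13 clusters, and its reads come from the cells' own gene and, within the coding exons, also from the transgene, which the table does not separate. In the authors' deposited table the 7 enriched clusters stood at log2 folds of 4.79, 2.83, 1.57, 1.41, 1.25, 1.21 and 1.15, and the other 6 ran from -0.39 to 0.99. The highest lay 2977 nt from the gene start, and the next, at chr15:76072436-76072635, 2353 nt from the gene end. At 11 of the 13 places the table of Puf60 with exon 5 listed a cluster, which was enriched at 9. At chr15:76077686-76077735 the fold was -0.22 here and 1.27 there, and at chr15:76075586-76075635 it was 1.57 here and 0.35 there, with no test of either difference.

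Set beside the table of Puf60 with exon 5, the strongest clusters were shared and the weaker ones less so. Of 700 enriched clusters with a log2 fold above 5, 98.9% overlapped an enriched cluster with exon 5, and 1.14% met no listed one. The share with an enriched counterpart was 88.8% between 4 and 5, 66.4% between 3 and 4, 66.8% between 2 and 3, 51.5% between 1 and 2 and 36.1% below 1. The 10 named clusters of highest fold all had an enriched counterpart, which was lower by a little at Fubp1 (7.24 with exon 5 against 7.28 without in the authors' deposited tables) and by more at Cacng3, a calcium channel subunit gene (5.51 against 7.17). All 10 were higher without exon 5, as can follow from having been chosen for their rank in this table. Enriched clusters that met no cluster with exon 5 were 50 nt wide in 90.8% of cases, against 60.5% of those with an enriched counterpart. Over all 14235 enriched clusters, 63.7% had an enriched counterpart with exon 5 and 30.5% met no listed cluster. Genes with many of the latter included Huwe1 (26 of 87 enriched clusters), Cep170 (21 of 28), Prrc2c (20 of 41), Fubp1 (19 of 49) and the myelin-gene regulator Myef2 (16 of 35). At Huwe1 this was near the share over all enriched clusters. At Cep170 the table with exon 5 listed 20 clusters, 11 of them enriched, against 54 and 28 here. Rbm38, in contrast, had an enriched cluster at 36.5% of the enriched clusters below a log2 fold of 1 at 10.1% of those between 3 and 4, at 11.6% between 4 and 5 and at 18.1% above 5. In all, 3521 of the 14235 enriched clusters (24.7%) met no cluster in either other table. Of these 3521, 8 were above 5, against 700 of the 14235.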

How the data were processed

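For each cluster the authors deposited the CLIP-to-input difference as a log2 fold, its p-value and an adjusted p-value. Per the submitters' processing notes, TopHat and edgeR were used and the builds NCBIM37 and mm10 are named; the handling of random primer bases is not given in the sources used here. Of the clusters above 0 on the log2 scale 97.8% had a deposited p-value under 0.5, and below 0 the share was 0%, so the test was for enrichment only. No per-library values or depth were used, so no test between libraries was run.

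Clusters were assigned by their centre to 49976 RefSeq genes of GRCm38.p6. Small RNA genes took precedence over hosts in the gene classes only. In counts per gene and per list, a cluster at a small RNA gene went to a host of matching strand. Starts that are multiples of 50 were read as plus strand and those offset by 35 as minus; a gene took the strand of at least 80% of at least 3 clusters. The strand read from the offset matched RefSeq for 93.4% of 25400 clusters that lay in 1 gene. The strand a gene took matched RefSeq for 3593 of 3804 genes (94.5%). Python 3.11.15, pandas 2.3.3, numpy 2.4.6, SciPy 1.17.1 and matplotlib 3.10.9 were used, and the counting was tested on simulated data.

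Members and gene lists were chosen with earlier results of these data known. Genes named are the 10 highest and 10 lowest clusters (1 per gene), the 10 genes with most enriched clusters, the 10 highest and 10 lowest medians among genes of at least 8 clusters, the 10 genes with most enriched clusters lacking a counterpart with exon 5, up to 4 members with most enriched clusters per list, the 5 highest folds per noncoding class, and Puf60. Predicted genes were left out. The rule's longest runs of touching enriched clusters gave 0 pairs, and the widest enriched clusters took their place. The lowest clusters per class and outside small RNA genes, genes enriched at all or none of their clusters, hairpins, start-site windows and further list members were chosen after their values were seen. Alternatives were other thresholds, windows, strand rules, gene assignments and overlap minimums. A few genes selected by these rules are not reported here.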

Additional observations from a re-analysis of the deposited data

How the results depend on the processing

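No paired analysis was possible because the table gives 1 comparison per cluster and no column per library; leaving out single libraries was not possible for the same reason. The count of enriched clusters was 13634 at an adjusted p of 0.01, 15437 with a Benjamini-Hochberg adjustment of the deposited p and 12478 with a log2 fold of at least 1, all within 1.5 times of 14235. Genes with an enriched cluster numbered 1990 when at least 2 were required. The share of enriched clusters near the gene end was 7.31% with a window of 1000 nt, against 21.8% of clusters that were not enriched. Protein-coding genes held 93.8% of enriched clusters when only centres in 1 gene were counted. The share overlapping an enriched cluster with exon 5 was 58.7% when 50% of both clusters had to overlap and 65.2% at an adjusted p of 0.01. Of the alternatives of the main results, 5 moved them beyond the limits set. The remaining 14, which include those for the count of enriched clusters, did not. Lists above the background numbered 19 to 23 under the alternatives, against 21. With a log2 fold of at least 1, 4 lists crossed the background (31.8%): chromatin regulators (31.8%), pyrimidine-tract regulators (31.4%), translation factors (26.8%) and chaperones (26.3%). Without the member with most clusters, translation factors stood at 35.01% and the nuclear noncoding list stood at 46.5%. Leaving out genes of over 100 clusters, or each list's largest member, was chosen after seeing the data. With depth unknown, a cluster that is not enriched cannot be told from one with too few reads.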

Other observations

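At the 10 named clusters of highest log2 fold in the authors' deposited table, Rbm38 was enriched at 1, Nfat5, with 2.78, listed as neither at 6 and not listed at 3. The difference between the proteins was not tested.

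Exact ties were common. The pair of values shared most often was held by 216 clusters, which the authors' deposited table lists at -1.56 on the log2 scale, while the most shared enriched pair was held by 17 clusters at 0.72. Of enriched clusters 58.2% shared their values with another cluster.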
